A study of Mus musculus with 48 samples.

Results

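The transporters examined were 9 proteins that carry organic anions, drugs, bile constituents and hormones across the hepatocyte membrane. They were *Slco1a1*, *Slco1a4*, *Slco1b2*, *Slco2b1* and *Slc22a7*, which take substrates up from the blood, *Abcc2*, *Abcb4* and *Abcg2*, which export into bile, and *Abcc3*, which exports back to the blood. Members were found by their GENCODE gene symbol, and all 9 of the 9 named genes were present among the 20622 genes of the RNA tables and had ribosome-protected fragments (RPFs) counted in every library.

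Hepatocytes clear bile salts, bilirubin, steroid conjugates and many drugs in steps, from uptake at the sinusoidal membrane facing the blood to export at the canalicular membrane facing the bile. Uptake relies on organic anion transporting polypeptides (the Slco family) and organic anion transporters (the Slc22 family), and export relies on ATP-driven pumps of the Abc families. In the mouse, *Slco1a1* is known as a male-predominant liver gene, and *Slco1a4* and *Abcc3* are known as genes that xenobiotic receptors can induce.

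RPFs are the pieces of mRNA that a ribosome covers, and so protects from nuclease, while it translates. They were sequenced along with cytoplasmic RNA from livers of male mice aged 2 to 4 months. The paper describes induction in both sexes and does not name these libraries among its male-only experiments. The 4 genotypes were wild type (WT), Ctnnb1ex3/+ (B), R26-LSL-MYC (M) and Ctnnb1ex3/+; R26-LSL-MYC (BM), in which Cre makes a stabilised β-catenin, switches on a MYC transgene, or does both. All mice, WT included, received AAV8.TBG.Cre, a virus whose TBG promoter limits Cre to hepatocytes, and livers were taken at day 4 or day 10. Each genotype and day had 3 individual mice, and both libraries of a mouse came from 1 lysate, which gave 24 mice and 48 libraries. Induction of the day 4 and day 10 mice was staggered so that the harvest was shared. The labels give no library or sequencing batch. Whole liver was ground, so fewer cells of a type and less RNA per cell cannot be told apart.

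RPF libraries held 9742197 to 14380713 counts and RNA libraries 3254141 to 6540116. One library pair stood apart before any transporter was considered. Mouse 1 of BM at day 10 correlated with the other BM mice of that day at r = 0.916 to 0.932 over genes for RPFs, whereas the other pairs of mice within a group lay between 0.973 and 0.995, and the counts of members called and the RPF differences from WT for BM at day 10 are therefore also given without it. As a check of the genotypes at day 4, *Glul*, a β-catenin target, had 3060 to 4648 RPF CPM, or counts per library total after scaling by TMM factors, in B at day 4 against 825 to 862 in WT, and *Myc* had 57.5 to 62.1 in M against 2.43 to 18.3 in WT. The summed RNA of the 9 hepatocyte markers counted of a list of 10, none at 0 in all mice of a group, was 120000 to 124300 CPM in WT at day 10 and 49610 to 53380 in BM. The Kupffer cell list of 10 genes summed to 310 to 369 and 379 to 432 CPM, the endothelial list of 10 to 802 to 820 and 489 to 579, the stellate list of 10 to 531 to 631 and 273 to 295, the cholangiocyte list of 8 to 107 to 162 and 122 to 139, and the leukocyte and blood list of 10 to 306 to 487 and 162 to 600 in the same 2 groups. No counted gene of these lists was at 0 in all 3 mice of either group. At day 4, 5 of the 6 lists were lower in every BM mouse than in every WT mouse, with hepatocyte sums of 119200 to 120800 CPM in WT and 55600 to 66280 in BM, Kupffer sums of 321 to 385 and 138 to 164, endothelial sums of 749 to 759 and 429 to 468, and stellate sums of 483 to 507 and 247 to 322. The cholangiocyte sums overlapped at 117 to 201 and 97.0 to 133, and the leukocyte and blood sums did not, at 294 to 308 and 126 to 185, with 1 gene of the last list at 0 in all 3 BM mice. The hepatocyte sums of B and M were 93280 to 111700 and 74700 to 94510 CPM at day 4 and 58210 to 61060 and 61410 to 75020 at day 10. The part of these shifts in the transporter results was not tested.

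*Slco1a1* and *Slco1a4* had to be told apart by short reads, so their sequences were compared first. They lie on the minus strand of chromosome 6, at 141853007 to 141892690 and 141751165 to 141802036 (GRCm39), with *Slco1b2* on the plus strand at 141575179 to 141633546. The other members lie elsewhere, *Slco2b1* on chromosome 7 (99306783 to 99360547, minus), *Slc22a7* on chromosome 17 (46743044 to 46749407, minus), *Abcc2* on chromosome 19 (43770631 to 43829179, plus) and *Abcc3* on chromosome 11 (94233874 to 94283823, minus). *Abcb4* lies on chromosome 5 (8943604 to 9011999, plus) and *Abcg2* on chromosome 6 (58561505 to 58672661, plus). The coding sequences of *Slco1a1* and *Slco1a4*, both 2010 bases long without the stop codon, were identical at 86.7% of aligned bases. Of the 1978 windows of 33 bases in *Slco1a1*, about the length of a footprint, 168 (8.49%) occurred exactly in another gene of the *Slco1a* family, and for *Slco1a4* the number was 283 (14.3%). With up to 2 mismatches allowed, the numbers were 892 (45.1%) and 1102 (55.7%) against the 5 other *Slco1a* genes compared. The most alike stretch of 60 coding bases, from coding base 672 to 731 in both genes, held no difference, and a footprint within it could not be assigned to either gene.

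Slco1a1: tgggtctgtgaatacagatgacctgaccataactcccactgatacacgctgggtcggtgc
Slco1a4: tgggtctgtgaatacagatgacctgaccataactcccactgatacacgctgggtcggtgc

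The least alike stretch of the same length, from coding base 1163 to 1222, held 22 differences, written in capitals in *Slco1a4*. None of its 28 windows occurred exactly in another *Slco1a* gene, and the fewest mismatches to any of them were 5 for *Slco1a1* and 2 for *Slco1a4*.

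Slco1a1: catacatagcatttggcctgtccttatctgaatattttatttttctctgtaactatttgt
Slco1a4: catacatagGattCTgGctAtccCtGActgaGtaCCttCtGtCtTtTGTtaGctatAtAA

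*Abcb4* shared 219 of its 3796 windows (5.77%) with *Abcb1a* or *Abcb1b*. The other 6 members shared no window exactly with any of the 16201 coding sequences compared. How the RPF alignment placed reads that matched several genes is not given in the sources used here, nor is the number of mismatches it allowed. RNA reads were counted by RSEM after Bowtie2. The counts of *Slco1a1*, *Slco1a4* and *Abcb4* are thus uncertain by an amount that was not measured.

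Per length of coding sequence, the transporters of WT liver spanned a wide range of RPF levels. *Slco1b2*, the major hepatic uptake carrier of bilirubin conjugates and statins, led with a median of 897 RPF CPM per kb over the 6 WT mice (651 to 1179). *Slco1a1* followed with 431 (396 to 553), and *Abcc2*, the canalicular pump of conjugated bilirubin, with 145 (127 to 185). Neither *Slco1b2* and *Slco1a1* nor *Slco1a1* and *Abcc2* overlapped. Below them, *Abcg2* (131, overlapping *Abcc2*), *Abcb4* (109), *Slco2b1* (77.3) and *Abcc3* (73.1) each overlapped their neighbour in the order, as did *Slc22a7* (47.3) and *Slco1a4* (34.3) at the lower end. The WT levels of *Abcc3* (61.0 to 126) and *Slc22a7* (15.5 to 60.6) met without overlapping.

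**Figure D1:**
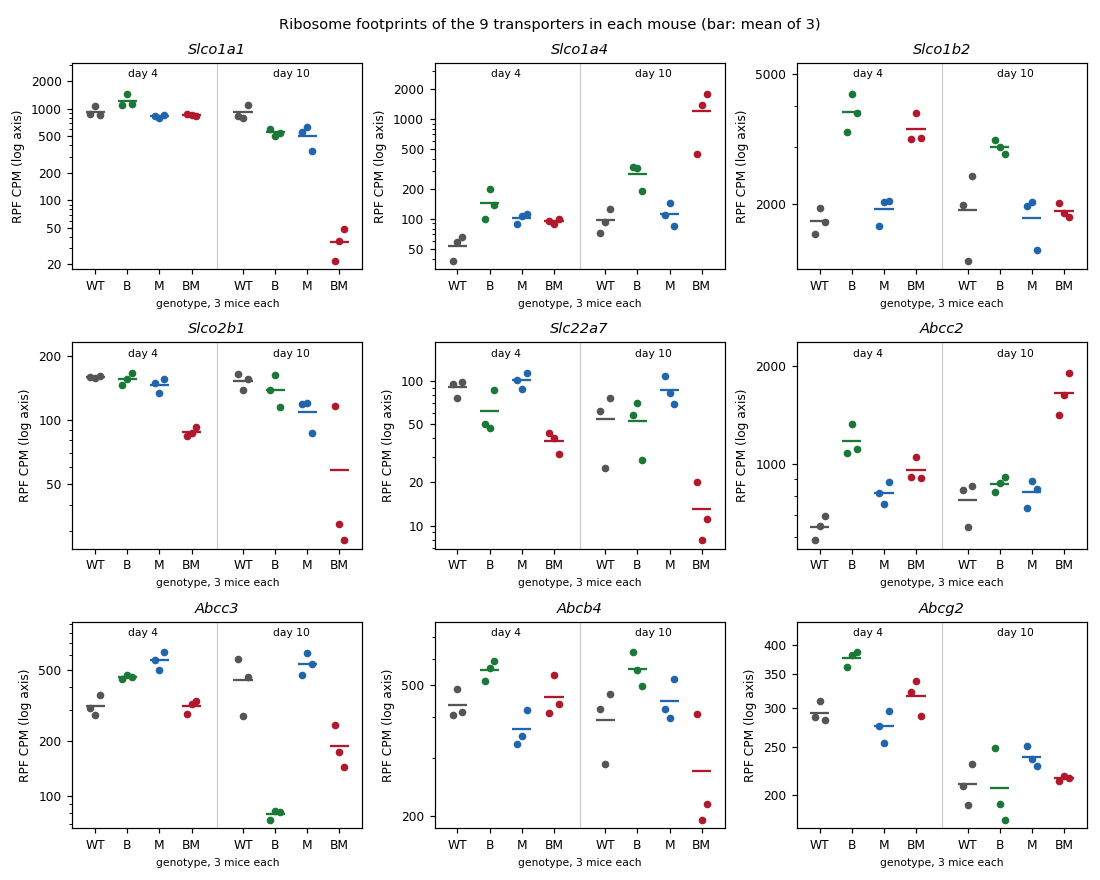
RPF CPM of each transporter on a log axis in every mouse, by genotype within day 4 and day 10, where points are mice and bars the mean of 3. *Slco1a1* lay between 21.9 and 49.1 in BM at day 10 and above 347 in all other groups, and *Slco1a4* lay between 441 and 1797 in BM at day 10 and below 328 in all other groups.

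*Slco1a1*, an uptake carrier of steroid sulfates and bile salts, had 877, 1062 and 855 RPF CPM in WT at day 4 and 836, 796 and 1112 at day 10. In BM at day 4 the mice had 883, 863 and 838, which overlapped WT. In BM at day 10 they had 21.9, 35.9 and 49.1, so that every BM mouse lay below every mouse of any other group. RPFs were 25.9-fold lower than in WT (log2 difference -4.70 ± 0.34, SE, 3 mice each, adjusted p = 0.000148, edgeR quasi-likelihood test) and RNA fell by 5.76 ± 0.22 (adjusted p = 2.23e-06), to 17.1, 22.9 and 26.0 RNA CPM against 1201, 1039 and 1322 in WT. Without BM mouse 1 the RPF difference was -4.44. The BM difference from WT changed from day 4 to day 10 by a log2 value of -4.60 ± 0.34 (adjusted p = 5.75e-06).

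The single mutants showed smaller *Slco1a1* differences. B mice had 1093, 1468 and 1130 RPF CPM at day 4, all above WT, with a rise of 0.39 ± 0.13 (adjusted p = 0.0939) that was lost when WT mouse 1 or 3 or B mouse 2 or 3 was left out and with all 24 mice in 1 fit (adjusted p = 0.457). At day 10 they had 608, 503 and 544, all below WT, with a log2 difference of -0.75 ± 0.15 (adjusted p = 0.0113). The 2 B differences themselves differed by -1.13 ± 0.21 (adjusted p = 0.00516). M mice had 835, 791 and 865 at day 4 (log2 difference -0.13, adjusted p = 0.331) and 554, 626 and 348 at day 10. The day 10 difference was -0.85 ± 0.23 (adjusted p = 0.0483). This call was lost without WT mouse 3 or M mouse 1 and with the replicate number as a block (adjusted p = 0.106).

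*Slco1a4*, an uptake carrier of bile salts and cardiac glycosides, moved in the other direction. It had 38.0, 58.0 and 65.4 RPF CPM in WT at day 4 and 72.4, 93.9 and 124 at day 10, and was the only member called higher between the WT days (log2 difference 0.85 ± 0.21, adjusted p = 0.0633), a call that was lost without WT day 4 mouse 1 or 2 or WT day 10 mouse 3 and with all 24 mice in 1 fit (adjusted p = 0.384). Without WT day 10 mouse 2, *Abcc2* (0.40, adjusted p = 0.0615) and *Abcc3* (0.71, adjusted p = 0.012) were also called higher between those days. Levels were above WT in all 3 genotypes at day 4, with 100, 197 and 139 in B (1.42 ± 0.24, adjusted p = 0.00413), 89.0, 106 and 112 in M (0.96 ± 0.17, adjusted p = 0.00295) and 96.0, 88.4 and 100 in BM (0.85 ± 0.16, adjusted p = 0.00133). None of the 9 mutant mice overlapped WT.

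At day 10 the *Slco1a4* order of genotypes changed, with a mean of 94.8 RPF CPM in BM and 145 in B at day 4 and every BM mouse above every B mouse at day 10. B mice had 328, 321 and 190 RPF CPM (1.51 ± 0.24, adjusted p = 0.00364) and M mice 109, 142 and 84.9, which overlapped WT (0.21 ± 0.23, adjusted p = 0.593). BM mice had 441, 1382 and 1797, and mouse 1 was the lowest of them. The BM level was 12.4-fold that of WT (log2 difference 3.63 ± 0.51, adjusted p = 0.00198) and 4.03 on the log2 scale without mouse 1. BM also exceeded B (2.13 ± 0.50, adjusted p = 0.0232) and M (3.41 ± 0.53, adjusted p = 0.0065). RNA moved alike, with 345, 964 and 1136 RNA CPM in BM against 65.0, 71.0 and 89.8 in WT (3.43 ± 0.40, adjusted p = 0.000411).

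Among the 3 BM mice of day 10, mouse 1 had the lowest and mouse 3 the highest RPF value for both *Slco1a4* and *Slco1a1*, and the same held for their paralogs *Slco1a5* and *Slco1a6*. *Slco1a5* had 34.1, 84.3 and 106 RPF CPM in these mice against 40.6, 28.1 and 38.3 in WT, with 3.98, 13.8 and 15.3 RNA CPM. *Slco1a6* had 18.9, 67.5 and 88.0 RPF CPM while its RNA stayed at 0.398, 1.60 and 0.779 CPM, and in WT of day 10 it had 40.0, 38.0 and 55.5 RPF CPM beside 1.24, 1.37 and 0.982 RNA CPM. *Slco1a6* shared 14.5% of its windows exactly with other *Slco1a* genes. The part of such shared footprints in the *Slco1a1* and *Slco1a4* values was not tested.

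**Figure D2:**
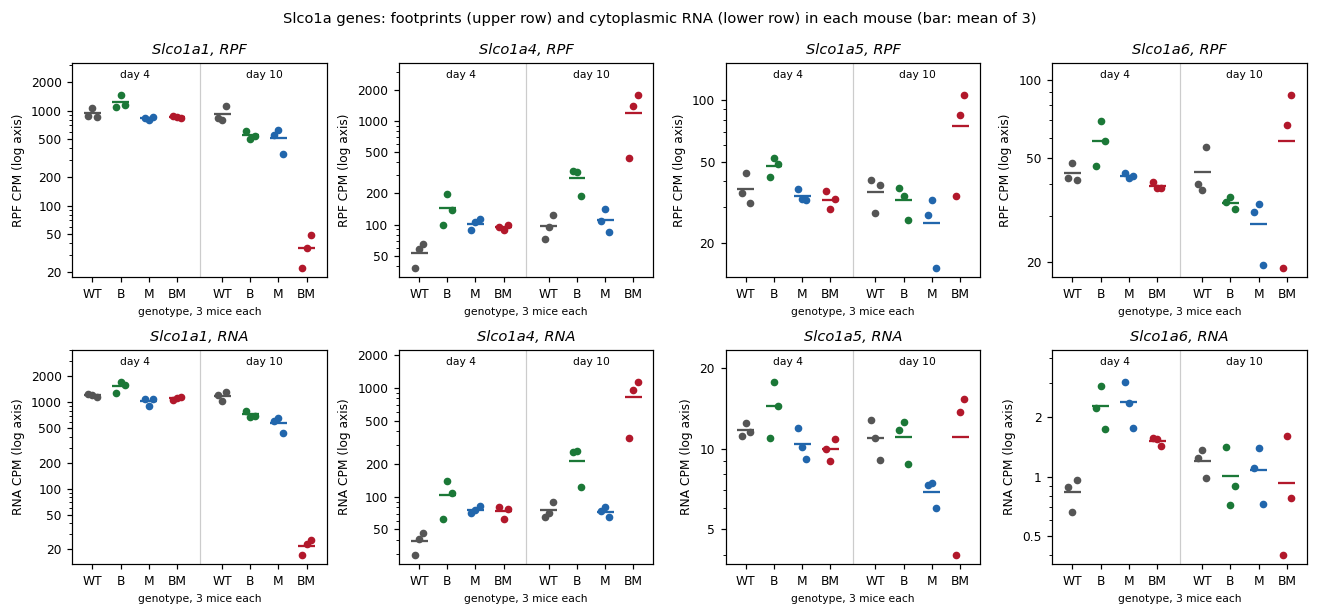
CPM of 4 *Slco1a* genes on log axes in every mouse, with RPFs in the upper row and cytoplasmic RNA in the lower row, by genotype within day, where points are mice and bars the mean of 3. *Slco1a6* had 18.9 to 88.0 RPF CPM but 0.398 to 1.60 RNA CPM in BM at day 10, and *Slco1a1* and *Slco1a4* moved apart in both rows.

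*Slco1b2* rose with the β-catenin allele. WT mice had 1621, 1945 and 1765 RPF CPM at day 4, B mice 3334, 4366 and 3805, and BM mice 3175, 3796 and 3198, so that neither mutant overlapped WT. The log2 differences were 1.09 ± 0.11 in B (adjusted p = 0.000339) and 0.96 ± 0.11 in BM (adjusted p = 3.67e-05), whereas M mice had 1722, 2038 and 2056 (0.16 ± 0.10, adjusted p = 0.265). At day 10, WT mice had 1998, 1345 and 2438 and B mice 3150, 2988 and 2856 (0.62 ± 0.20, adjusted p = 0.0632, lost without WT mouse 1 or B mouse 1 or 2). BM mice of day 10 had 2022, 1884 and 1827, inside the WT range (-0.03 ± 0.24, adjusted p = 0.94) and below every B mouse (-0.64 ± 0.15, adjusted p = 0.0265, lost without B mouse 2 or BM mouse 2). The BM difference from WT was thus lower at day 10 than at day 4, by 0.97 ± 0.26 (adjusted p = 0.0183).

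*Slco2b1*, an uptake carrier of steroid sulfates, was lower in BM at both days. WT mice had 160, 157 and 161 RPF CPM at day 4 and BM mice 83.5, 86.9 and 92.9, a log2 difference of -0.84 ± 0.08 (adjusted p = 8.88e-06). B mice had 146, 155 and 166 and M mice 149, 134 and 156, and neither passed the test. At day 10 the BM mice split, with 116 in mouse 1 and 32.4 and 27.2 in mice 2 and 3, against 164, 138 and 156 in WT. The difference was -1.40 ± 0.51 with all 3 (adjusted p = 0.0627) and -2.37 without mouse 1 (adjusted p = 3.24e-07), and it missed the threshold when any 1 of the other 5 mice was left out. M mice of day 10 had 119, 120 and 87.1, all below WT (-0.49 ± 0.15, adjusted p = 0.0666). This call was lost without WT mouse 1 or 3 or M mouse 1 and with all 24 mice in 1 fit (adjusted p = 0.354). It was also lost with the replicate number as a block (adjusted p = 0.106).

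*Slc22a7*, which carries organic anions and nucleotides and is known as OAT2, had the fewest counts of the 9, with 102 to 1482 RPF counts and 7 to 110 RNA counts per library. WT mice had 95.7, 76.6 and 98.1 RPF CPM at day 4 and BM mice 43.6, 40.2 and 31.1 (log2 difference -1.21 ± 0.13, adjusted p = 3.00e-05). At day 10 WT mice had 62.3, 25.2 and 76.7, with mouse 2 well below the others, and BM mice had 20.1, 7.92 and 11.1, all lower (-2.08 ± 0.47, adjusted p = 0.0116). M mice had 101, 88.0 and 114 at day 4 and 108, 83.0 and 69.2 at day 10, and B mice 50.2, 47.3 and 87.1 and then 58.4, 70.4 and 28.5. Neither single mutant passed the test in RPFs, though B at day 4 did with no filter on low counts (-0.56, adjusted p = 0.0803), with the replicate number as a block (-0.61, adjusted p = 0.0245) and without B mouse 3 (-0.90, adjusted p = 0.00382). In RNA, *Slc22a7* was lower in B at day 4 (-0.66 ± 0.18, adjusted p = 0.0502), a call lost by DESeq2 (adjusted p = 0.119), with all 24 mice in 1 fit (adjusted p = 0.364) and without WT mouse 1 or 2 or B mouse 2, and higher in M at day 10 (1.08 ± 0.24, adjusted p = 0.0179).

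*Abcc2* was higher in all 3 mutant genotypes at day 4. WT mice had 586, 650 and 695 RPF CPM, B mice 1084, 1332 and 1114 (log2 difference 0.86 ± 0.10, adjusted p = 0.000699), M mice 817, 759 and 881 (0.38 ± 0.09, adjusted p = 0.0106) and BM mice 915, 1053 and 907 (0.60 ± 0.10, adjusted p = 0.000477). Each mutant group lay wholly above WT. At day 10, WT mice had 836, 643 and 856, B mice 822, 878 and 918, and M mice 734, 888 and 841, which overlapped. BM mice had 1415, 1632 and 1905, above every other mouse of that day (1.07 ± 0.20, adjusted p = 0.00615). The B difference was smaller at day 10 than at day 4 by 0.70 ± 0.18 (adjusted p = 0.0229), and the BM differences were not called apart (0.48 ± 0.21, adjusted p = 0.114, and 0.56, adjusted p = 0.0216, without BM mouse 1). They were called apart by DESeq2 (0.50, adjusted p = 0.0927) and with all 24 mice in 1 fit (0.51, adjusted p = 0.0383).

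*Abcb4*, the floppase that places phosphatidylcholine into bile, showed modest differences. WT mice had 405, 488 and 413 RPF CPM at day 4 and B mice 515, 565 and 590 (log2 difference 0.34 ± 0.10, adjusted p = 0.0533). At day 10 the values were 421, 288 and 469 in WT and 629, 556 and 498 in B (0.50 ± 0.18, adjusted p = 0.0916). B lay above WT in all mice at both days, and both calls were lost under 4 choices of a left-out mouse and with all 24 mice in 1 fit (adjusted p = 0.532 and 0.105). BM mice of day 10 had 408, 195 and 218, with mouse 1 inside the WT range. The BM difference was -0.54 ± 0.31 (adjusted p = 0.211) and became -0.94 (adjusted p = 0.00167) without that mouse and -0.52 (adjusted p = 0.0482) with all 24 mice in 1 fit.

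*Abcg2*, the canalicular exporter of drugs, urate and sulfated steroids, had 287, 309 and 284 RPF CPM in WT at day 4 and 362, 382 and 387 in B (log2 difference 0.35 ± 0.08, adjusted p = 0.0195). M mice had 276, 255 and 295 and BM mice 322, 339 and 289 at that day, without a call. No genotype differed from WT by the test at day 10, where WT mice had 209, 192 and 231 and BM mice 214, 219 and 217. Between the days it fell by 0.47 ± 0.10 in WT (adjusted p = 0.0324, lost without WT day 4 mouse 1 or 2), by 0.86 ± 0.13 in B (adjusted p = 0.00326) and by 0.58 ± 0.12 in BM (adjusted p = 0.0126). The difference of -0.20 ± 0.09 in M was not called (adjusted p = 0.362).

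*Abcc3*, the basolateral pump that returns glucuronides and bile salts to the blood, differed from WT in opposite directions at the 2 days in B. It had 305, 281 and 362 RPF CPM in WT at day 4, 447, 466 and 454 in B (log2 difference 0.51 ± 0.10, adjusted p = 0.00955) and 568, 499 and 624 in M (0.87 ± 0.11, adjusted p = 0.000546), with no overlap. The B call at day 4 was lost with all 24 mice in 1 fit, in RPFs (0.53, adjusted p = 0.198) and in RNA (0.46, adjusted p = 0.205). At day 10, B mice had 73.8, 82.0 and 81.0 against 576, 279 and 455 in WT, a 5.59-fold lower level (-2.48 ± 0.24, adjusted p = 0.00032). The difference between the B effects was -3.00 ± 0.28 (adjusted p = 5.51e-05), the largest B effect between days among the 9 members' RPFs. RNA gave -3.01 ± 0.26 (adjusted p = 3.60e-06).

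BM mice had 282, 321 and 336 RPF CPM of *Abcc3* at day 4, within the WT range (0.01 ± 0.11, adjusted p = 0.946), and 246, 175 and 144 at day 10, all below WT (-1.23 ± 0.31, adjusted p = 0.0169). The BM level at day 10 lay between those of B and M, above B by 1.26 ± 0.21 (adjusted p = 0.009) and below M by 1.54 ± 0.23 (adjusted p = 0.00619). M mice of day 10 had 465, 616 and 539, which overlapped WT (0.30 ± 0.24, adjusted p = 0.453).

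**Figure D3:**
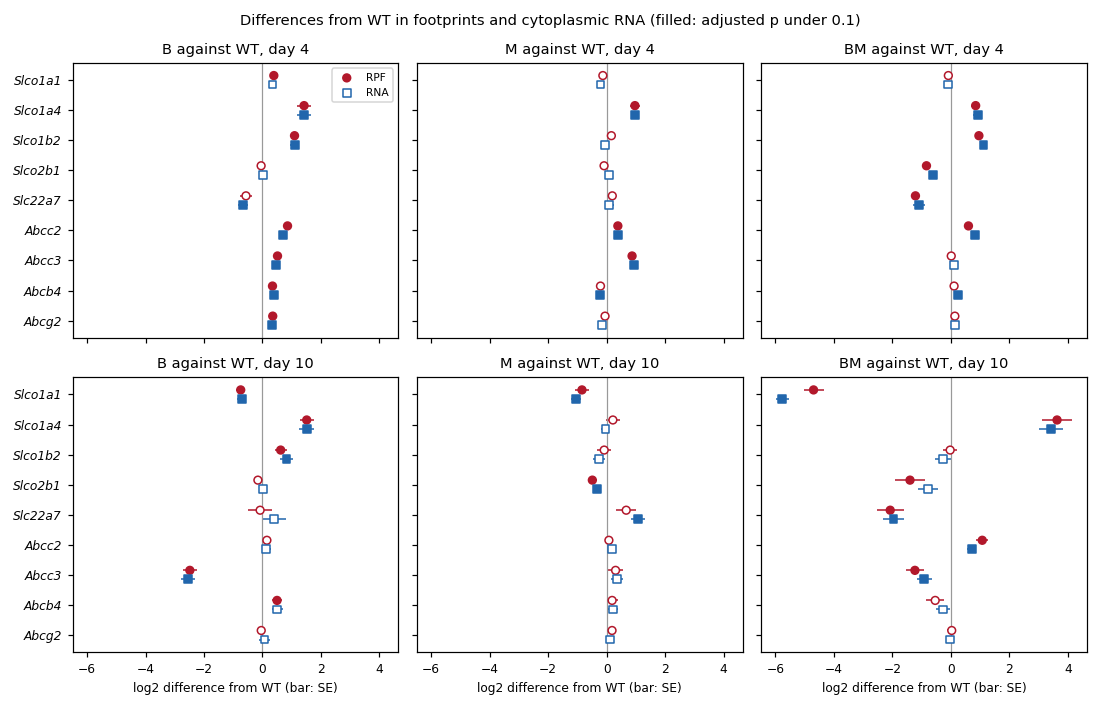
Log2 differences from WT for each transporter in the 3 mutant genotypes at day 4 (upper row) and day 10 (lower row), with RPFs as circles and RNA as squares, filled where the adjusted p was under 0.1, and bars for the SE. At day 10 *Abcc3* lay at -2.48 in B, and *Slco1a1* at -4.70 and *Slco1a4* at 3.63 in BM.

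The members' calls were read against the share of all tested genes that was called in the same comparison. In B at day 4, 7 of the 9 members were called in RPFs, all higher, where 12.5% of genes were called. In M at day 4, 3 members were called higher against 33.3% of genes, and in BM at day 4, 3 higher and 2 lower against 50.9%. At day 10, 3 members were called higher and 2 lower in B (25.2% of genes), 2 lower in M (19.4%) and 2 higher and 4 lower in BM (46.8%). The share of members called was close to that of all genes in M and in BM at day 4, and the B share at day 4 exceeded it.

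In RNA, the corresponding shares of all genes were 8.14% for B, 23.7% for M and 41.9% for BM at day 4, where 7, 4 and 6 members were called. They were 15.6%, 15.7% and 45.7% at day 10, where 4, 3 and 5 members were called. Over the 17 comparisons, 75 of 153 member tests were called in RPFs and 75 in RNA, where 28.3% and 22.3% of the tests of all genes were called. The 65 member tests called in both had the same direction in both.

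Without BM mouse 1 of day 10, the RPF differences of BM from WT at that day were -4.44 for *Slco1a1*, 4.03 for *Slco1a4*, -0.06 for *Slco1b2*, -2.37 for *Slco2b1*, -2.54 for *Slc22a7*, 1.17 for *Abcc2*, -1.47 for *Abcc3*, -0.94 for *Abcb4* and 0.04 for *Abcg2*. No member call of BM at day 10 against WT, B, M or BM of day 4, or between the BM effects of the days, was lost without it. The members called rose from 6 to 7 in RPFs against WT, with *Abcb4* added, and from 5 to 8 in RNA, with *Slco1b2*, *Slco2b1* and *Abcb4* added. The share of all genes called rose as well, to 66.3% in RPFs and 57.1% in RNA.

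Between mutants, BM at day 4 had 7 members lower than in B in RPFs (44.7% of genes called) and 3 in RNA (34.8%). They included *Slco2b1* (-0.79 ± 0.08, adjusted p = 7.52e-05), *Abcc3* (-0.50 ± 0.09, adjusted p = 0.0018) and *Slco1a1* (-0.48 ± 0.12, adjusted p = 0.0106). Against M at day 4, 2 members were higher and 3 lower in RPFs (38.2% of genes), and 4 higher and 3 lower in RNA (30.5%). *Slc22a7* differed most, at -1.41 ± 0.13 (adjusted p = 8.11e-05). At day 10, BM had 3 members higher and 4 lower than B in RPFs (36.5% of genes), with the same 2 counts in RNA (31.8%). Against M it had 2 higher and 3 lower in RPFs (32.7%), and again in RNA (32.9%), led by *Slco1a1* at -3.86 ± 0.38 (adjusted p = 0.00139). Without BM mouse 1 of day 10, *Slco2b1* was also lower than in B and M, and *Abcb4* lower than in M, in RPFs. The members called in RPFs were then 8 against B (61% of genes) and 7 against M (59.2%), and in RNA 8 (46.3%) and 7 (50.4%).

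Between the days, WT had 1 member higher and 1 lower in RPFs (4.44% of genes called), which were *Slco1a4* and *Abcg2*, and 3 calls in RNA (2.32%). B had 1 higher and 5 lower in RPFs (34.5%) and 4 calls in RNA (15.2%), and BM had 2 higher and 6 lower in RPFs (45.3%) and 7 calls in RNA (39.7%). M had none called in RPFs (0.909% of genes), 3 at an unadjusted p under 0.05 by edgeR and 1 called by DESeq2, and 1 in RNA (0.778%), which was *Slco1a1* (-0.85 ± 0.15, adjusted p = 0.0345). The difference of the genotype effects between the days was called for 3 members in B (17.2% of genes), none in M (1.18%, with 3 members at an unadjusted p under 0.05 by edgeR and none called by DESeq2) and 4 in BM (35.7%) in RPFs. In RNA the numbers were 3 (9.31%), 2 (1.2%) and 4 (29.9%). Without BM mouse 1 of day 10, the members called between the BM days were 9 in RPFs (68.7% of genes) and 8 in RNA (55.8%). For the BM effects they were 8 in RPFs (57.3%), with *Slco2b1*, *Slc22a7*, *Abcc2* and *Abcb4* added, and 7 in RNA (43.5%).

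Translational efficiency (TE), the RPF level relative to the RNA level of the same gene, gave no member call in any of the 17 comparisons, or 0 of 153 tests, by edgeR's quasi-likelihood test or by DESeq2. 8 of the 153 tests had an unadjusted p under 0.05, and the lowest adjusted p was 0.347. Against WT at day 4, the share of genes called was 0.0488% for B, 0.971% for M and 2.23% for BM, and at day 10 it was 0.0564%, 0% and 0.259%. For BM against B and M the shares were 1.12% and 0.0943% at day 4 and 0.169% and 0.132% at day 10. Between the days they were 0.501% (WT), 0.804% (B), 0% (M) and 0.403% (BM), and for the day differences of the B, M and BM effects 0%, 0% and 0.31%. Without BM mouse 1 of day 10, many more TE calls were made among all genes and among the members. They were 2 members in BM against WT at day 10 (21.5% of genes), 4 against B (15%), 1 against M (13.5%), 5 between the BM days (23.9%) and 3 between the BM effects (13.2%).

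A mouse's RPF and RNA libraries came from 1 lysate, and with the mouse as a replicate block 8 of 153 member tests of TE were called, where 2.33% of the tests of all genes were called. In BM at day 10, the log2 TE of *Slco1a1* was 0.36, 0.65 and 0.92, above every WT mouse (-0.52, -0.38 and -0.25). The difference was 1.04 ± 0.38 without the block (adjusted p = 0.395), 1.00 with it (adjusted p = 0.0197, 5.21% of genes called) and 1.15 without BM mouse 1 (adjusted p = 0.0112). The blocked TE difference of *Slco1a1* was also called against B (1.03, adjusted p = 0.0345, 0.703% of genes), against day 4 (1.02, adjusted p = 0.014, 3.18%) and between the BM effects (1.02, adjusted p = 0.0155, 1.87%). RNA of *Slco1a1* in these mice was 17.1 to 26.0 CPM, and its footprints include windows shared with *Slco1a4*.

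The log2 TE of *Slco2b1* was lower in BM at day 10, with -0.21, -0.67 and -0.98 against 0.23, 0.04 and 0.19 in WT. Its difference of -0.64 ± 0.67 (adjusted p = 0.788) became -0.78 with the block (adjusted p = 0.0644) and -0.996 without BM mouse 1 (adjusted p = 0.00173). *Abcc2* was called with the block in BM against B at day 4 (-0.40, adjusted p = 0.000207, 4.68% of genes) and between the BM days (0.55, adjusted p = 0.0934), and *Slco1b2* in BM against M at day 4 (-0.39, adjusted p = 0.00408, 2.12% of genes). In the fits without the block these 3 had adjusted p = 0.553, 0.432 and 0.967. RPFs were counted on 1 transcript of a gene, whereas RNA was summed over all its isoforms. That transcript held 37.2% of the RNA level per length (TPM) of *Slco2b1*, with 3 isoforms, and 53.3% of that of *Slco1a1*, with 2. The part of isoform use in the TE differences was not tested.

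**Figure D4:**
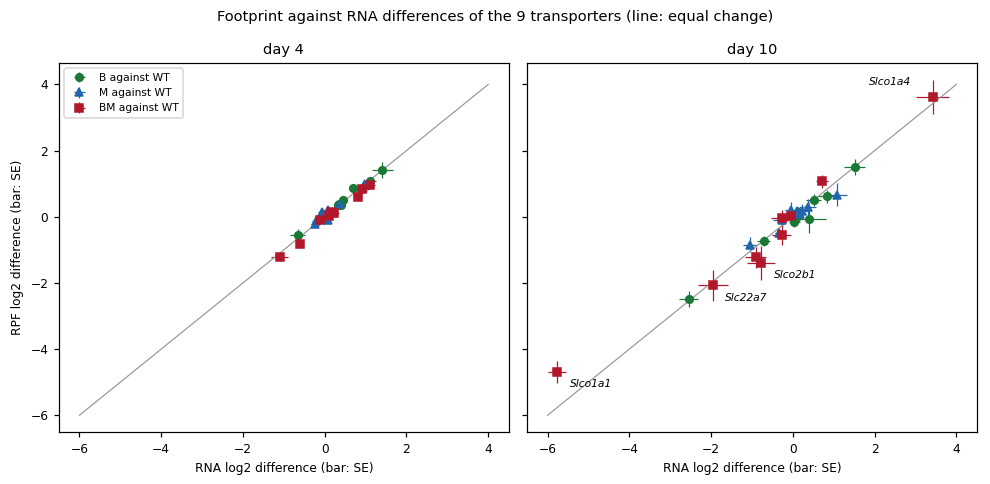
RPF log2 difference from WT (vertical) against the RNA log2 difference from WT (horizontal) for the 9 transporters in B, M and BM at day 4 and day 10, with SE bars and the line of equal change. *Slco1a1* of BM at day 10 lay above it, at -5.76 in RNA and -4.70 in RPFs.

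As shares of the summed RPF CPM per kb of the 9 members, the make-up of the set shifted in BM at day 10. *Slco1a1* held 20.2% to 25.6% in WT and 0.589% to 1.0% in BM, *Slco1a4* 1.75% to 3.02% and 11.9% to 36.7%, *Abcc2* 7.57% to 8.97% and 16.1% to 16.9%, and *Slco1b2* 42.0% to 48.3% and 36.3% to 52.8%. The sum itself was 1549 to 2443 RPF CPM per kb in WT and 1853 to 2433 in BM, which overlapped. CPM values are relative to the library, so these sums cannot show a change in the total amount of footprints in a liver. In B at day 4 the sum was 2959 to 3778 against 1821 to 2108 in WT, and *Slco1b2* held 54.5% to 55.9% of it against 43.1% to 44.6%.

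Other genes followed single members across the 24 mice, by Pearson's r of log2 RPF CPM among 11999 genes, given as a description since the 24 mice fall into the same 8 groups. *Slco1a1* was most like *Elovl3* (r = 0.98), *Hsd3b5* (0.98) and *Ces3a*, and the first 2 belong to a list of 12 male-biased liver genes. *Elovl3* had 456, 223 and 457 RPF CPM in WT and 0.638, 0.543 and 0.909 in BM at day 10, and *Hsd3b5* had 205, 187 and 239 against 0.29, 0.388 and 0.331. In that comparison 11 of the 12 male-biased genes were lower and none higher (median log2 difference -3.46, against 0.03 for all genes), where 22.3% of genes were lower and 24.5% higher. Of a list of 14 female-biased genes 6 were tested, with 4 higher and 1 lower (median 2.31), whereas the summed RPFs of the list were lower in BM, at 578 to 1193 CPM against 1279 to 1968 in WT, and its summed RNA overlapped, at 306 to 336 against 250 to 447 CPM. *Slco1a4* was most like its paralog *Slco1a8* (r = 0.95), *Ppargc1a* (0.93) and *Zfp385b* (0.92). *Slco1a8* had 6.96 to 15.9 RPF CPM in BM at day 10 but 0.199 to 1.15 RNA CPM.

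*Slco1b2* was most like *Rgn* (r = 0.95), *Akr1c6* (0.94) and *Tspan12* (0.92). The genes most like *Slco2b1* included *Pink1* (0.97), and *Slc22a7* was most like *Trim7* (0.92), *Dio1* (0.90) and *Rubcn* (0.90). *Abcc2* was most like *Crls1* (0.92), *Kif1b* (0.91) and *Polr3a* (0.90), and *Abcc3* like *Bdh2* (0.92), *Gm4952* (0.92) and *Degs1l* (0.91). *Abcb4* was most like *Cyp1a2* (0.88), *Pgap6* (0.87) and *Tmem184b* (0.87), and *Abcg2*, with the lowest values, like *Urod* (0.83), *Mtmr10* (0.81) and *Pih1d1* (0.80). *Rgn* and *Cyp1a2* belong to the list of pericentral genes described next.

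The zonal lists moved in the same livers. Of 17 pericentral (zone 3) genes, 16 were higher in B at day 4 (median log2 difference 1.64, 6.21% of genes higher), 15 in B at day 10 (1.69, 13.1%), 15 in BM at day 4 (1.78, 26.2%) and 11 in BM at day 10 (1.62, 24.5%), and 1 was lower in BM at each day. Of 17 periportal (zone 1) genes, 15 were lower in B at day 10 (median -1.22, 12.1% of genes lower) and 15 in BM at day 4 (-1.39, 24.7%). In BM at day 10, 8 were lower and 3 higher (median -0.80), where 22.3% of genes were lower and 24.5% higher. The summed zone 1 RNA of BM at day 10 was 5784 CPM in mouse 1, below the 8850 to 10070 of WT, and 14340 and 16230 in mice 2 and 3, above WT and in the mice with the lower *Slco2b1*. The summed RNA in mice 2 and 3 and the median RPF difference of the genes therefore pointed in opposite directions. The part of zonal shifts in the transporter values was not tested.

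Among 32 other transporters, 6 of 27 tested were higher and 10 lower in BM at day 10 (median log2 RPF difference -0.39), or 16 of 27 where 46.8% of genes were called. At day 4, 6 were higher and 7 lower (median -0.15), or 13 of 27 where 50.9% of genes were called, so that the day 4 share was close to that of all genes. The higher ones of day 10 were led by *Slc22a3*, an organic cation carrier, at 4.67, *Slc22a27* at 1.95, *Abcb1b* at 1.52 and *Abcc5* at 1.20. The lower ones were led by *Slc22a28* at -6.97, *Slc22a30* at -3.87, *Slco2a1* at -2.80 and the bile salt export pump *Abcb11* at -2.34. At day 4 the higher ones included *Slc22a27* at 2.04, *Abcb1b* at 1.20 and *Abcb1a* at 0.76, and the lower ones were led by *Slco2a1* at -2.45, *Slc22a30* at -0.97, *Slc22a28* at -0.92 and *Slc10a1*, the sodium-dependent bile salt uptake carrier, at -0.55. The *Slco1a1* paralogs *Slco1a5* and *Slco1a6* were at 1.05 (called) and 0.37 (not called) in BM at day 10. Of 16 regulators of transporter genes, 3 were higher and 7 lower in BM at day 10 (median -0.35), where 24.5% and 22.3% of genes were.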

How the data were processed

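RPF and cytoplasmic RNA libraries of 24 livers were analysed. The authors trimmed reads with cutadapt, removed duplicates by molecular identifiers, and aligned RPFs with BBmap to the most abundant GENCODE vM27 transcript of each gene. The deposited RPF values are whole-number counts over the coding sequence without the first 20 and last 10 codons. The deposited RNA values are expected counts from RSEM 1.3.3 after Bowtie2 2.3.5.1, summed per gene and rounded here, and the authors' TPM values served only as levels per length. Transcripts without a line in an RPF file were taken as 0.

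Levels were tested with edgeR 4.0.16 (quasi-likelihood test, TMM scaling, filterByExpr with a minimum count of 10 and total of 15) in R 4.3.3, over all genes, in the mice of the groups compared. The test of TE was the group by library type interaction term. A call was a Benjamini-Hochberg adjusted p under 0.1. The 17 comparisons set each mutant against WT, BM against B and M, day 10 against day 4, and the mutant effects between days. CPM values are scaled by TMM factors. Alternatives were RLE scaling, no filter, DESeq2 1.42.0, all 24 mice in 1 fit, a replicate block and leaving out each mouse. RPF and RNA libraries of 1 mouse deviated together from their group means (r = 0.156 to 0.605 over genes in 24 of 24 mice). For TE the mouse thus pairs them. The main TE fit left this pairing out, and only the replicate block for TE used it. The fitting code was tested on simulated data for B against WT at day 4. Intervals and tests cover 3 mice a group.

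The named genes were all 9 members, the 3 genes most like each by r, and the 4 genes with the largest called difference in each direction among the other transporters, with others named for a comparison they bear on. Some genes that this rule names are not reported here. The members and lists were chosen with earlier results of these data known. Coding sequences came from GRCm39 with the GENCODE vM39 annotation, where 16201 of 16269 RPF transcripts were found. Their lengths were not checked against the GENCODE vM27 transcripts that the authors used.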

Additional observations from a re-analysis of the deposited data

Results flagged for a closer look

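The effect of a genotype against WT differed between day 4 and day 10 for 5 members, by edgeR's test of the difference itself (12 mice each, adjusted p under 0.1), and values are log2 differences of the day 10 effect minus the day 4 effect. *Slco1a1* gave -1.13 in B and -4.60 in BM for RPFs. Its RNA gave -1.06 in B, -0.83 in M and -5.67 in BM. *Slco1a4* gave 2.80 in BM for RPFs, and in RNA 2.51 in BM and -1.01 in M. *Slco1b2* gave -0.97 in BM for RPFs and -1.39 for RNA. *Abcc3* gave -3.00 in B and -1.23 in BM for RPFs, with -3.01 and -1.01 for RNA.

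*Abcc2* differed in B, by -0.70 for RPFs and -0.58 for RNA. The RNA call (adjusted p = 0.071, edgeR) was lost without WT day 4 mouse 1, 2 or 3 or B day 4 mouse 2 or 3. It was also lost without WT day 10 mouse 1 or 3 or B day 10 mouse 2. The 2 differences called in M were RNA differences and were lost with all 24 mice in 1 fit, at adjusted p = 0.173 for *Slco1a1* and 0.642 for *Slco1a4*. That of *Slco1a1* was also lost with the replicate block (adjusted p = 0.133). It was lost without WT day 4 mouse 1, 2 or 3, M day 4 mouse 1 or 3, WT day 10 mouse 1 or 3 or M day 10 mouse 1. That of *Slco1a4* was lost without WT day 4 mouse 1, M day 4 mouse 1 or 3, WT day 10 mouse 3 or M day 10 mouse 1. No test for a single outlying mouse was made within the groups of 3.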

How the results depend on the processing

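No called difference of a member changed sign under any alternative. Of 2295 member tests under the other settings, 2202 stayed on the same side of the threshold, 43 were lost and 50 were gained. With 1 mouse left out, 3043 of 3240 did, with 136 lost and 61 gained. The precision is limited by 3 mice a group and by 7 to 110 RNA counts for *Slc22a7*.

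With all 24 mice in 1 fit, the members called in RPFs were 4 instead of 7 for B against WT and for BM against B at day 4, 3 instead of 5 for BM against M at day 4, 1 instead of 2 for M against WT at day 10, and 1 instead of 2 between the WT days. In RNA they were 3 instead of 7 for B against WT at day 4, 0 instead of 3 between the WT days and 0 instead of 2 for the M effect between days. In TE they were 1 for BM against WT, 1 for BM against B at day 10 and 2 between the BM days, instead of 0. The cause was not tested.

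Equal replicate numbers in 2 groups did not pair the mice (median r = -0.0076 for RPFs, above 0.1 in 10 of 84 pairs). With that number as a replicate block, RPF calls were 0 instead of 2 for M against WT at day 10 and 1 instead of 2 between the WT days, and RNA calls 0 instead of 1 between the M days and 1 instead of 2 for the M effect. For TE, with the mouse as the replicate block, calls were 1 for BM against B and 1 against M at day 4, 2 for BM against WT and 1 against B at day 10, 2 between the BM days and 1 for the BM effect, instead of 0, and the share of all genes called rose from 0.416% to 2.33% over the 17 comparisons. DESeq2 gave 1 RPF call instead of 0 between the M days, and no filter gave 4 RNA calls instead of 2 for the M effect.

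With 1 mouse left out, RPF calls ranged from 0 to 4 (2 with all mice) between the WT days, 3 to 5 (3) for the B effect between days, 4 to 8 (4) for the BM effect, 4 to 7 (7) for BM against B at day 4, 0 to 2 (0) between the M days, 3 to 5 (5) for B and 0 to 2 (2) for M against WT at day 10. RNA calls ranged from 1 to 3 (3) between the WT days, 0 to 3 (2) for the M effect, 4 to 7 (4) for the BM effect, 0 to 1 (1) between the M days and 5 to 8 (5) for BM against WT at day 10. TE calls, 0 with all mice, reached 3 for the BM effect, 5 between the BM days, 2 for BM against WT, 4 against B and 1 against M at day 10.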
